A study of Homo sapiens with 16 samples.

Results

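The comparison concerned HCT116-shDKC1 cells, a human colorectal carcinoma line carrying a hairpin against DKC1, and set RNA treated with CMC and Terminator (CMC+Terminator) against untreated RNA (CMC-). It rests on 4 of the 16 libraries of the series, 2 of each kind, taken by their labels. Within each replicate, one deposited table sets a CMC+Terminator library beside a CMC- library, and the members are the positions listed in both tables. There were 51177 such positions, or 33339 once positions sharing the same 31-base sequence were counted once, 12046 of them uridines (U). The filter on low values, 10 or more stop reads in 2 or more libraries, left 19851 positions, of which 7003 were U and 12848 were A, C or G. All libraries of the series hold fragmented polyadenylated RNA, and those used here come from HCT116 cells. The CMC+Terminator libraries also list steps named AP5 and XhoI that the CMC- libraries do not, so the effects of CMC, of Terminator and of these steps cannot be told apart. A further 4 libraries of the same design from wild-type HCT116 cells, 2 with CMC+Terminator and 2 with CMC-, served for comparison. The labels give neither separate cultures for the replicates nor the number of hairpin clones, so p-values measure the spread between these libraries.

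DKC1 encodes dyskerin, the enzyme of the H/ACA ribonucleoproteins, in which a guide RNA pairs with a target and dyskerin turns the exposed uridine into pseudouridine. Ribosomal RNA (rRNA) and spliceosomal RNAs are its classical targets, whereas stand-alone enzymes such as PUS1, PUS7 and TRUB1 modify transfer RNAs and some messenger RNAs without a guide. CMC is a carbodiimide whose adduct stays on pseudouridine after alkaline treatment and halts reverse transcriptase. Terminator is an exonuclease that degrades RNA ending in a 5′ monophosphate. A stop percent is the number of reads stopping at a position divided by the number of reads covering it, times 100.

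The sequences shown first are of uridines with a large change in their RNA class, with 18S base 1248 added for its known modification and RPS27 for its sequence context. Each line gives 10 bases on either side where the transcript allows, 5′ to 3′ as deposited with T for U, and the capital marks the uridine. Base numbers of rRNA count from the start of the RefSeq gene named, and positions are on hg38.
28S rRNA base 4517 (RNA28SN2, chr21:8218404, plus strand): gagctgggttTagaccgtcgt
28S rRNA base 3803 (RNA28SN2, chr21:8217690, plus strand): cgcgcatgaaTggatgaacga
28S rRNA base 3743 (RNA28SN2, chr21:8217630, plus strand): acggcgggagTaactatgact
28S rRNA base 4427 (RNA28SN2, chr21:8218314, plus strand): cgctttttgaTccttcgatgt
18S rRNA base 1248 (RNA18SN1, chr21:8438123, plus strand): ttaatttgacTcaacacggga
U1 spliceosomal RNA base 5 (counted at chr1:146376811, plus strand): atacTtacctggcag
U4 spliceosomal RNA base 72 (RNU4-1, chr12:120293166, minus strand): ttgaaaacttTtcccaatacc
7SK RNA base 249 (RN7SK, chr6:52995869, plus strand): ggtccatttgTaggagaacgt
mitochondrial valine tRNA base 65 (MT-TV, chrM:1666, plus strand): acttgaccgcTctga
nuclear glutamate tRNA base 13 (tRNA-Glu-CTC-1-2, chr1:161447287, minus strand): cctggtggtcTagtggttagg
TMSB10 mRNA (chr2:84906608, plus strand): attctccggtTtgccccggga
RPS27 mRNA (chr1:153991591, plus strand): ccacggtcttTagccatgcac

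The knockdown libraries held 23227050 and 26893250 reads with CMC+Terminator and 29550983 and 29461447 reads with CMC-, by the totals behind the deposited RPM. Positions of the DKC1 transcript were too few to check the label. In the knockdown 2 and 1 were listed per replicate, at 2 to 6 covering CMC- reads, and in wild type 2 and 3, at 8 to 20. The epithelial markers EPCAM, KRT8, KRT18, KRT19, CLDN4 and CLDN7 each had positions shared by both knockdown tables. CLDN3 had 2 and 3 positions in these tables but none shared, CDH1 had 2 in replicate 1 only, LGALS4 had none, and none of the 8 markers of other cell types was listed.

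The first question was which uridines stop reverse transcription more often after CMC and Terminator. With CMC+Terminator 836 of 7003 U (11.9 percent) were called higher, by edgeR's quasi-likelihood test with a Benjamini-Hochberg adjusted p under 0.05 and a stop percent raised 2-fold or more. Among A, C and G 1356 of 12848 (10.6 percent) were called higher, and over all bases 2192 of 19851 (11.0 percent). U made up 38.1 percent of the calls and 35.3 percent of the tested positions. The median stop percent of tested U was 6.75 with CMC+Terminator and 4.28 with CMC-, and that of the other bases 4.68 and 3.19. The median log2 change in stop percent was 0.51 at U and 0.43 elsewhere. Called changes of at least 4-fold were at 114 U (1.63 percent of those tested) and 198 other bases (1.54 percent), a U share of 36.5 percent, and those of at least 8-fold at 12 U and 11 other bases (0.171 and 0.0856 percent).

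No position was called lower in stop percent, and the listing leaves no room for one. Every position listed in a knockdown table had 5 or more stop reads with CMC+Terminator, 1 or more with CMC-, and a stop percent with CMC+Terminator equal to or above that with CMC-. At an unadjusted p under 0.05, 2508 U were higher and 0 lower, and DESeq2 with covering reads called 311 higher and 0 lower. Scaling stop reads by TMM instead of covering reads gave 719 U higher and 85 lower, and 2362 other bases higher and 194 lower. The A, C and G positions passed through the same listing, so their share is the background against which that of U is read. Fits that left out 1 library, here and below, also had no replicate block, and removing the block alone left 708 called U. Without CMC+Terminator replicate 1 the called U numbered 432, and without CMC- replicate 2 they numbered 409.

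By class, the called share was higher at U than at other bases in 18S and 28S rRNA, small nuclear RNAs and tRNAs, lower in 5.8S rRNA, and much the same in mRNA (bar plot by RNA class). In 18S rRNA 54 of 215 U (25.1 percent) and 51 of 508 other bases (10.0 percent) were called higher. In 28S rRNA 81 of 380 U (21.3 percent) and 151 of 1506 other bases (10.0 percent) were called. Spacers of the 45S precursor had 51 of 374 U (13.6 percent) and 215 of 1446 other bases (14.9 percent). Among snRNAs, snoRNAs and 7SK the counts were 27 of 126 U (21.4 percent) and 10 of 106 other bases (9.43 percent). Pseudogene positions, whose reads may come from the parent RNA, had 44 of 1420 U (3.10 percent) and 80 of 2112 other bases (3.79 percent). These shares are descriptions: positions of one RNA share libraries and reads, and the difference between U and other bases was not tested.

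Large-subunit rRNA held deeply covered uridines whose stop percent rose over 8-fold. 28S base 4517 stopped 14.7 and 13.4 percent of covering reads with CMC+Terminator, against 1.69 and 1.53 percent with CMC- (log2 3.13 ± 0.08 SE, adjusted p 0.00211). Base 3803 stopped 18.7 and 16.6 percent, against 2.18 and 1.92 percent with CMC- (log2 3.11 ± 0.08, adjusted p 0.00211). Both libraries of each kind were close to each other and the groups were far apart. Base 3743 stood at 9.97 and 10.3 percent with CMC+Terminator and at 1.68 and 1.44 percent with CMC- (log2 2.70 ± 0.10). Base 4427 stood at 10.5 and 10.1 percent, against 1.96 and 1.54 percent (log2 2.56 ± 0.10). Base 1739 had 9.39 and 9.22 percent, against 1.75 and 1.59 percent (log2 2.48 ± 0.09), the closest treated pair of the 28S uridines named here. Base 3680 had 11.9 and 13.2 percent, against 2.81 and 1.91 percent (log2 2.44 ± 0.18), and base 4416 had 3.63 and 4.38 percent, against 0.845 and 0.662 percent (log2 2.44 ± 0.16). CMC- covering reads at these bases numbered 10623 to 18989 in replicate 1. The remaining rRNA uridine of the leading 8 was not in mature rRNA: RNA45SN1 position 8434764 of chromosome 21, base 1543 of the precursor and in a spacer, stood at 5.99 and 4.26 percent, against 0.698 and 0.682 percent (log2 2.83 ± 0.17, adjusted p 0.00336). It rested on 22 CMC- stop reads.

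Called uridines of the small subunit had levels close to those of the large one. Over the 54 called 18S uridines the median stop percent was 5.50 with CMC+Terminator and 1.81 with CMC-, and over the 81 called 28S uridines 5.32 and 1.82. 18S base 1248, as background a hypermodified uridine that carries an aminocarboxypropyl group besides being a pseudouridine, stood at 16.5 and 15.2 percent with CMC+Terminator and already at 5.94 and 5.63 percent with CMC- (log2 1.46 ± 0.08, adjusted p 0.00303). It had the highest treated stop percent of the 54 called 18S uridines. Bases 1244 and 1056, chosen after their values were seen, averaged 12.9 ± 1.19 and 7.95 ± 0.176 percent with CMC+Terminator, against 2.96 ± 0.235 and 1.89 ± 0.293 percent with CMC- (SD, n = 2 each). Base 34 averaged 5.46 ± 0.302 against 1.43 ± 0.0759 percent, and base 105 averaged 5.31 ± 0.522 against 1.49 ± 0.077 percent. In 5.8S rRNA 1 of 20 U (5.0 percent) and 6 of 44 other bases (13.6 percent) were called. The U was RNA5-8SN1 base 55, at 4.99 and 4.02 percent against 1.85 and 1.80 percent (log2 1.28 ± 0.10).

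**Figure D1:**
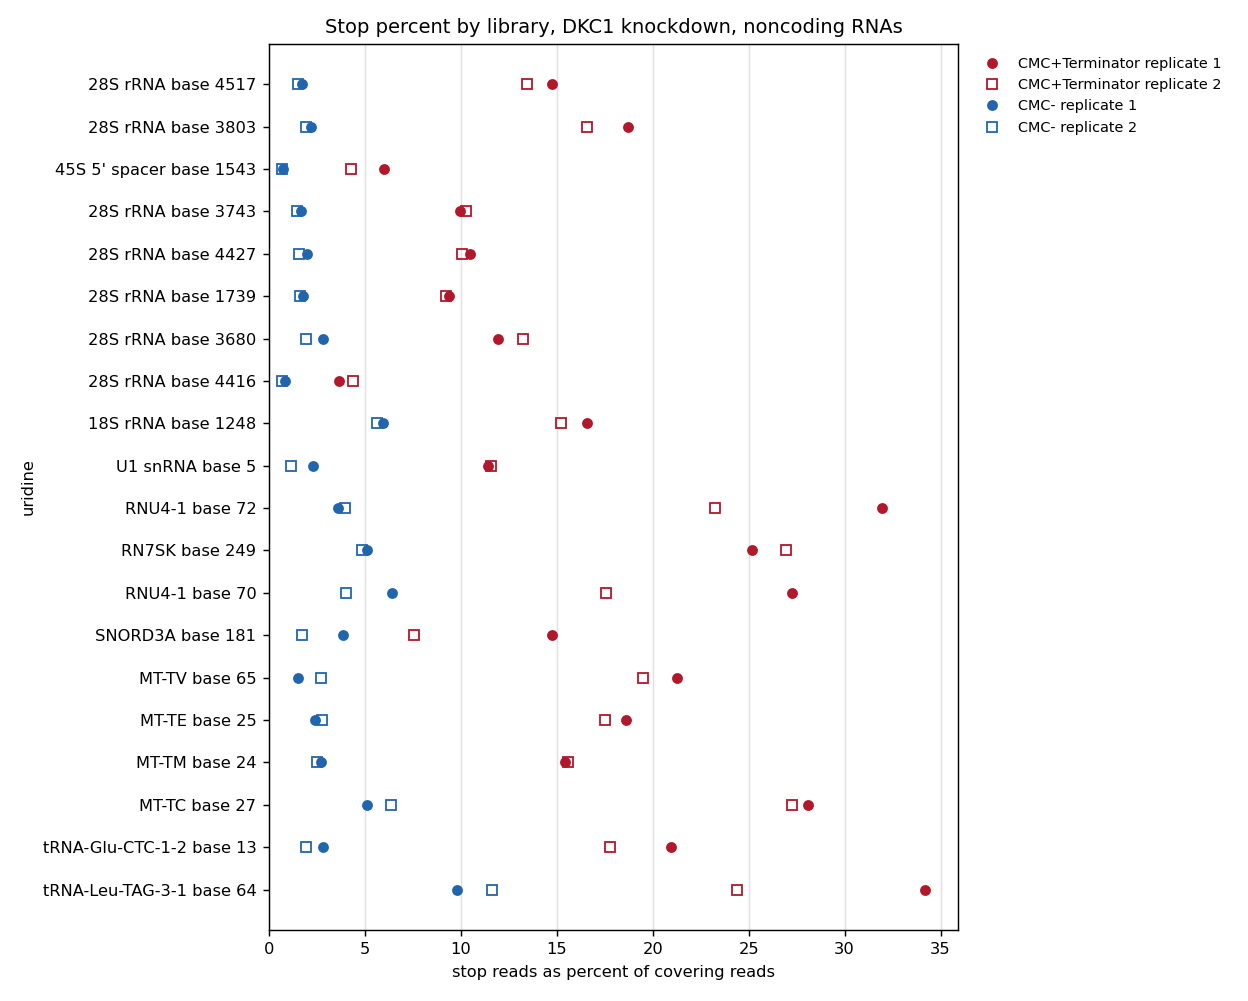
Stop reads as percent of covering reads (horizontal axis) at named uridines of noncoding RNAs (rows), one point per knockdown library, CMC+Terminator in red and CMC- in blue, replicate 1 filled and replicate 2 open. In all rows shown both CMC+Terminator libraries lie above both CMC- libraries, as they do at 835 of the 836 called U. The CMC+Terminator points run from 3.63 percent at 28S base 4416 to 34.2 percent at tRNA-Leu-TAG-3-1.

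Called uridines of snRNAs, snoRNAs and 7SK had a median stop percent of 18.3 with CMC+Terminator and 4.74 with CMC-. U1 base 5, in the stretch that pairs with the 5′ splice site and a textbook pseudouridine, stopped 11.4 and 11.6 percent of reads with CMC+Terminator, against 2.26 and 1.15 percent with CMC- (log2 2.81 ± 0.24, adjusted p 0.00506). Its sequence is shared by 17 listed copies, so the gene of origin is uncertain. U4 base 72 of RNU4-1 (exon 1), another uridine known as pseudouridine, stood at 31.9 and 23.3 percent, against 3.57 and 3.97 percent (log2 2.78 ± 0.22, adjusted p 0.00451). Base 70 of the same RNA stood at 27.3 and 17.6 percent, against 6.42 and 4.03 percent (log2 2.08 ± 0.19). 7SK, which holds the elongation factor P-TEFb inactive, had its largest change at base 249, with 25.2 and 26.9 percent against 5.08 and 4.87 percent (log2 2.39 ± 0.14, adjusted p 0.00315). SNORD3A, the U3 RNA that takes part in early pre-rRNA cleavage, stood at 14.8 and 7.57 percent at base 181, against 3.85 and 1.71 percent (log2 2.01 ± 0.16). The gap between the CMC+Terminator libraries of SNORD3A was wider than that between the lower of them and the higher CMC- library. U2 base 58 and U6 base 40, both known pseudouridines and named after their values were seen, averaged 11.4 ± 2.21 and 21.3 ± 4.18 percent with CMC+Terminator, against 2.79 ± 0.213 and 6.25 ± 2.04 percent with CMC- (SD, n = 2 each). U6 base 40 has 15 listed copies and U2 base 58 has 14. With DESeq2 on its own size factors, which scale stop reads without covering reads, the calls at U4 base 70 (adjusted p 0.472) and SNORD3A base 181 (adjusted p 0.119) were among the 27 lost of 51 positions named by rule.

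Transfer RNAs had the highest called shares of the RNA classes plotted. In mitochondrial tRNAs 22 of 51 U (43.1 percent) and 20 of 100 other bases (20.0 percent) were called, and in nuclear tRNAs 15 of 36 U (41.7 percent) and 11 of 66 other bases (16.7 percent). MT-TV, the valine tRNA, stood at 21.2 and 19.5 percent at base 65, against 1.52 and 2.69 percent with CMC- (log2 3.21 ± 0.24, adjusted p 0.00415). MT-TE, the glutamate tRNA, stood at 18.6 and 17.5 percent at base 25 (M:14718), against 2.41 and 2.75 percent (log2 2.77 ± 0.19), and TMM scaling of the stop reads ended that call (log2 0.96, adjusted p 0.0577). MT-TM, the methionine tRNA, stood at 15.4 and 15.6 percent at base 24 (M:4425), against 2.70 and 2.48 percent (log2 2.57 ± 0.15). MT-TC, the cysteine tRNA, stood at 28.1 and 27.3 percent at base 27 (M:5800), against 5.10 and 6.35 percent (log2 2.23 ± 0.20). In each of these the treated libraries agreed within 2 percentage points. With DESeq2 on its own size factors the calls at MT-TC and MT-TE were lost (adjusted p 0.329 and 0.531).

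Among nuclear tRNAs, tRNA-Glu-CTC-1-2 stood at 21 and 17.8 percent at base 13, against 2.81 and 1.94 percent (log2 3.0 ± 0.18, adjusted p 0.00303). Its sequence has 8 listed copies. tRNA-Leu-TAG-3-1 stood at 34.2 and 24.4 percent at base 64 (chr16:22195729), against 9.80 and 11.6 percent (log2 1.44 ± 0.26, adjusted p 0.0321). That call was lost without CMC+Terminator replicate 1 (log2 1.18, adjusted p 0.331), CMC- replicate 1 (log2 1.30, adjusted p 0.191) or CMC- replicate 2 (log2 1.54, adjusted p 0.148).

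Large changes at a further 3 uridines rested on fewer than 10 CMC- stop reads. All 3 passed the filter through the CMC+Terminator libraries alone, where they are high, so the filter favours a large ratio at them. The HSPA8 uridine had 10 stop reads in each of these libraries, the lowest number that passes. HSPA8 mRNA, which encodes a constitutive heat shock protein, stood at 58.8 and 45.5 percent at nucleotide 53 of its 5′ UTR (chr11:123059396), against 1.67 and 4.23 percent. With 20 stop reads set against 4, the stop shares had a ratio of 16.8, whose exact conditional interval at the 95 percent level ran from 5.63 to 67.6. MT-TL2, a mitochondrial leucine tRNA, stood at 35.7 and 27.3 percent at base 27, against 2.70 and 2.33 percent, a ratio of 12.2 (4.15 to 48.8). Base 55 of a sequence variant of RNA18SN1, far less covered than the common copy, stood at 5.78 and 4.99 percent, against 0.355 and 0.572 percent, a ratio of 11.2 (4.85 to 31.6). Such intervals cover counting error only, since the counts are of reads, and molecular identifiers are not named in the labels.

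Messenger RNA supplied more called uridines than any other class, and U there were called about as often as other bases. In mRNA 432 of 2535 U (17.0 percent) and 663 of 4095 other bases (16.2 percent) were called higher, and these U fell in 143 of 355 genes with a tested U. Without CMC+Terminator replicate 1 the mRNA U numbered 178, without CMC- replicate 2 they numbered 186, and DESeq2 with covering reads called 77. In coding sequence 154 of 1022 U (15.1 percent) and 259 of 1517 other bases (17.1 percent) were called, in 3′ UTRs 47 of 289 (16.3 percent) and 77 of 393 (19.6 percent), and in 5′ UTRs 17 of 233 (7.30 percent) and 22 of 538 (4.09 percent). Exons of noncoding transcripts of these genes had 132 of 625 U (21.1 percent) and 208 of 1099 other bases (18.9 percent) called, and positions that could not be placed in a region 82 of 366 (22.4 percent) and 97 of 548 (17.7 percent). Regions follow the transcript named in the tables where GENCODE 29 holds that version. The first 20 nucleotides of these transcripts, with a median of 30.5 covering CMC- reads at U, had 2 of 69 U and 3 of 154 other bases called. The U were HNRNPA2B1 nucleotide 3, in the 5′ UTR, and RPS2 nucleotide 10. The RPS2 uridine lies in coding sequence of its transcript, at 511 and 661 covering CMC- reads, so it may not be near an mRNA start.

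**Figure D2:**
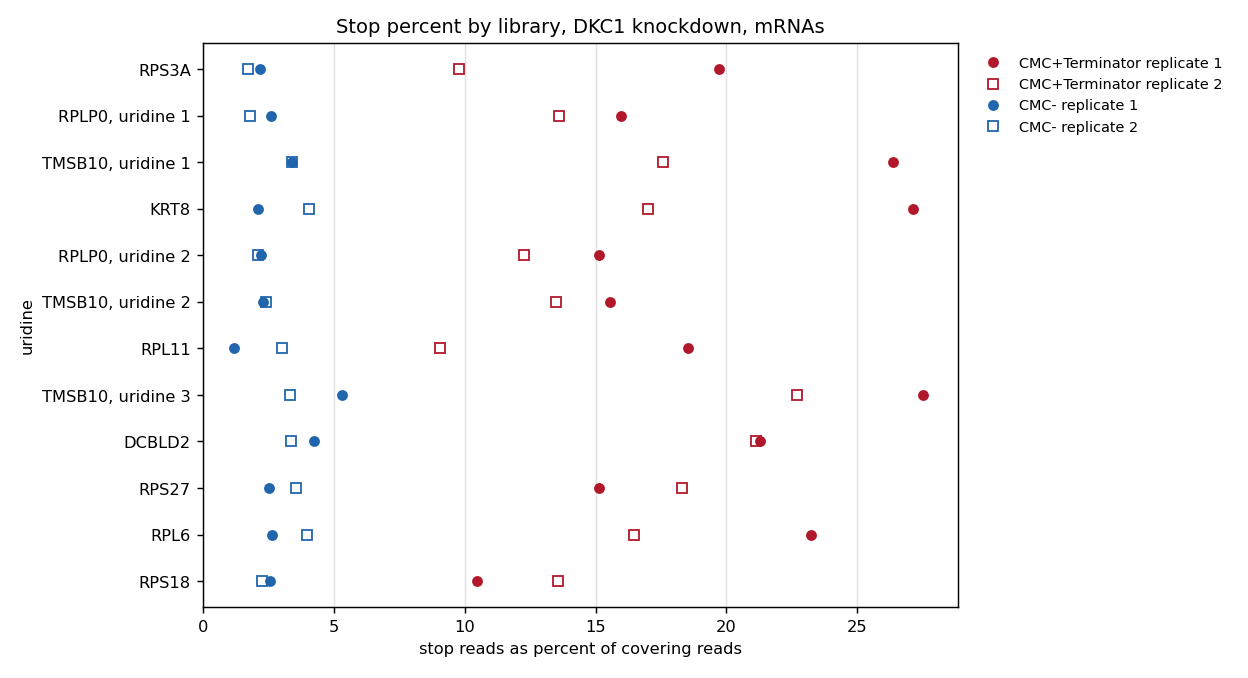
Stop reads as percent of covering reads (horizontal axis) at the 12 mRNA uridines of largest change with at least 10 CMC- stop reads (rows, largest change at the top), one point per knockdown library, CMC+Terminator in red and CMC- in blue, replicate 1 filled and replicate 2 open. No CMC- point lies above 5.29 percent and no CMC+Terminator point below 9.04 percent.

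Of the 12 mRNA uridines of largest change with at least 10 CMC- stop reads, 7 lay in ribosomal protein mRNAs (dot plot of mRNA uridines). These mRNAs also held 186 of the 432 called and 1084 of the 2535 tested mRNA U. RPS3A, a small-subunit ribosomal protein mRNA, stood at 19.7 and 9.78 percent, against 2.17 and 1.70 percent with CMC- (chr4:151103031, log2 2.86 ± 0.22, adjusted p 0.00438). RPLP0, the mRNA of a stalk protein of the large subunit, had 15.1 and 12.3 percent at chr12:120196902, against 2.19 and 2.09 percent (log2 2.64 ± 0.16). Both sequences have 2 listed copies, so their reads may be shared with a copy of the gene.

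TMSB10, which encodes an actin-binding thymosin, held 3 of the 12. Its neighbouring uridines at chr2:84906608 and chr2:84906607 stood at 26.4 and 17.6 percent and at 27.5 and 22.7 percent, against 3.38 and 3.37 percent and 5.29 and 3.31 percent. The uridine at chr2:84906559 stood at 15.6 and 13.5 percent, against 2.27 and 2.40 percent (log2 2.62 ± 0.17). KRT8, an epithelial keratin mRNA with 4 listed copies of this sequence, stood at 27.2 and 17.0 percent, against 2.10 and 4.04 percent (chr12:52897599, log2 2.65 ± 0.35, adjusted p 0.00973). RPL11 stood at 18.5 and 9.04 percent, against 1.16 and 3.0 percent (chr1:23693828, log2 2.59 ± 0.49, adjusted p 0.0254), the widest error of the 12. DCBLD2, which encodes a transmembrane receptor, stood at 21.3 and 21.1 percent in its 5′ UTR, against 4.23 and 3.36 percent (chr3:98881743, log2 2.44 ± 0.21). RPS27 (log2 2.43 ± 0.18), RPL6 (log2 2.42 ± 0.30) and RPS18 (log2 2.36 ± 0.19), all ribosomal protein mRNAs, completed the 12. With DESeq2 on its own size factors the calls at RPL11, TMSB10 chr2:84906607, DCBLD2, RPS27, RPL6 and RPS18 were lost (adjusted p 0.113 to 0.474). In all 12 both treated libraries lay above both CMC- libraries. That held at 835 of the 836 called U (99.9 percent), from which the 12 were chosen, and at 73.3 percent of all tested positions.

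Ribosomal protein mRNAs had 186 of 1084 U called (17.2 percent, in 57 of 79 genes) and 271 of 1643 other bases (16.5 percent), close to all mRNA. Their median log2 change at U was 0.65, that of all mRNA U 0.63. Translation factor mRNAs had 55 of 404 U (13.6 percent) and 69 of 574 other bases (12.0 percent) called. EEF2, the elongation factor that drives translocation, stood at 7.94 and 8.82 percent at its uridine of largest change (chr19:3976556), against 1.25 and 2.22 percent (log2 2.19 ± 0.23). EIF4A1, a helicase of translation initiation, stood at 23.3 and 26.2 percent at chr17:7578458, against 6.54 and 7.87 percent (log2 1.76 ± 0.18), a call that DESeq2 with covering reads did not make (adjusted p 0.0754).

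Glycolytic mRNAs had 25 of 119 U (21 percent) and 36 of 194 other bases (18.6 percent) called. LDHB, a lactate dehydrogenase subunit, stood at 24.2 and 19.8 percent (chr12:21635656, coding exon 8), against 6.08 and 4.79 percent (log2 2.00 ± 0.18), and ENO1, an enolase, at 23.7 and 13.5 percent (chr1:8878603), against 5.00 and 4.31 percent (log2 1.95 ± 0.20). Chaperone mRNAs had 11 of 67 U (16.4 percent) and 17 of 69 other bases (24.6 percent) called. HSP90AB1 stood at 12.0 and 17.3 percent (chr6:44253507), against 3.77 and 4.05 percent (log2 1.88 ± 0.21), which was lost without CMC+Terminator replicate 2 (log2 1.60, adjusted p 0.0672). snoRNA host transcripts had 31 of 165 U (18.8 percent) and 52 of 267 other bases (19.5 percent) called, with SNHG29 at 25.3 and 27.0 percent, against 6.52 and 6.21 percent (chr17:16441760, log2 2.02 ± 0.17). EEF2, counted both as a translation factor and as a host transcript, supplied 23 called of 103 tested U to each of these lists. Over the lists, which overlap at EEF2, the called share of U ran from 13.6 to 18.8 percent, apart from glycolysis at 21 percent. That of all mRNA U was 17.0 percent.

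The messages of the pseudouridylation machinery were barely covered. Of the H/ACA proteins, NHP2 had the 1 tested U, at 35.3 and 35.4 percent against 4.76 and 8.82 percent (chr5:178149666, log2 2.23 ± 0.29, adjusted p 0.0101). The reads behind it were few, 29 stops with CMC+Terminator and 4 with CMC-, so the ratio of 4.86 had bounds of 1.71 and 19.0 from counting alone. This U also passed the filter on stop reads through the CMC+Terminator libraries alone. NOP10 had 1 tested G, which was not called (log2 0.05 ± 0.28). Of the stand-alone synthases TRUB2 had 2 tested C, neither called, and no U was tested.

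Sequence context was examined next on the strand given in the tables. Guide-free synthases are known for short motifs. Of 65 tested U in the context TNTAG (U at the third letter, a form of the PUS7 motif), 13 were called (20.0 percent), and of 41 in TNTAA 2 were called (4.88 percent), against 11.9 percent of all tested U. TNTAG held 0.928 percent of the tested U and TNTAA 0.585 percent. In mRNA 5 of 12 U in TNTAG and 0 of 9 in TNTAA were called, against 17.0 percent of all mRNA U. The 5 were RPS27 at chr1:153991591 (15.2 and 18.3 percent, against 2.50 and 3.55), EEF2 at chr19:3976556 and chr19:3976143, RPLP1 at chr15:69455210 and RPL3 at chr22:39314750. The EEF2 call at 3976143 was lost without CMC+Terminator replicate 1 (log2 1.04, adjusted p 0.344), without CMC- replicate 2 (log2 1.11, adjusted p 0.211) and without the replicate block (log2 1.65, adjusted p 0.082), and also with library totals, TMM and both DESeq2 fits (adjusted p 0.0712 to 0.656). Outside mRNA the 8 included 28S base 4517, 7SK base 249 and base 13 of tRNA-Glu-CTC-1-2 and tRNA-Asp-GTC-2-1. Another was in the pseudogene AP000936.3, whose bases around the U differ from those shown for RPS27 only in the first. The RPS27 sequence has 4 listed copies, so these calls may share reads. GTTCNANNC, the TRUB1 motif with U at the third letter, was found at 3 tested U, of which 2 were called, both in tRNA genes (tRNA-Gly-GCC-1-1 base 53 and tRNA-Leu-TAG-3-1 base 64). Runs of 3 or more U had 123 of 949 called (13.0 percent). By the next base, U before G were called in 13.4 percent of 2981, before T in 11.9 percent of 1484, before C in 11.7 percent of 1373 and before A in 8.50 percent of 1165. These shares are small counts in places and were not tested.

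Called positions of other bases adjoined a called U more often than those not called, and so did called U. Of the 1356 called A, C and G, 161 (11.9 percent) had a called U as the next base on the 3′ side, against 149 of 11492 (1.30 percent) of those not called. On the 5′ side the counts were 84 (6.19 percent) and 165 (1.44 percent). Where the next base was a tested U, it was called at 57.9 percent of 278 called and 10.2 percent of 1461 uncalled A, C and G. Of the 836 called U, 63 (7.54 percent) had a called U as the next base, against 57 of 6167 (0.92 percent) of U not called. In rRNA 68 of 424 called other bases (16.0 percent) had a called U just 3′ of them, against 54 of 3118 (1.73 percent) not called. The C at M:1665 of MT-TV, just before the uridine at 1666, averaged 15.1 ± 1.16 percent with CMC+Terminator and 1.61 ± 0.567 percent with CMC- (log2 3.22 ± 0.24). The A before 28S base 3803 averaged 17.0 ± 2.48 and 2.65 ± 0.157 percent (log2 2.67 ± 0.09), whereas the G after it averaged 2.77 ± 0.189 and 1.89 ± 0.0744 percent and was not called (log2 0.56 ± 0.09). Neighbouring positions share covering reads, and the part of this in the count of called A, C and G was not tested.

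**Figure D3:**
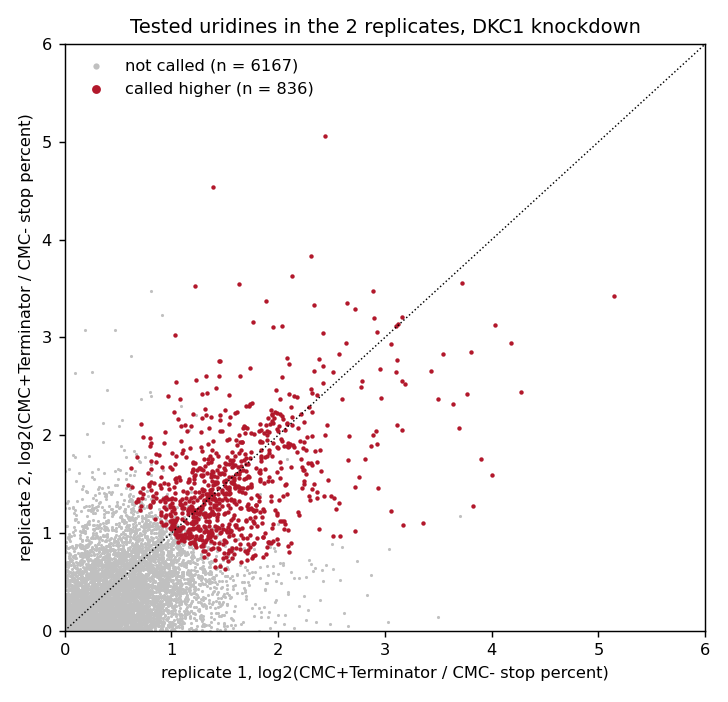
Log2 ratio of the CMC+Terminator to the CMC- stop percent in replicate 1 (horizontal axis) and replicate 2 (vertical axis) for the 7003 tested uridines of the knockdown, called ones in red and the rest in grey, with the line of equality dotted. All ratios are 0 or higher because of the listing, and the called uridines have medians of 1.5 and 1.42.

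The replicates agreed in part (scatter of the replicates). Over the 7003 tested U the median log2 ratio was 0.59 in replicate 1 and 0.45 in replicate 2, and 60.9 percent of U were higher in replicate 1. Pearson's r of the ratios across these U was 0.56 and Spearman's rho 0.43, as a description across positions that share libraries and the listing. The gap between U and other bases followed no single direction with depth. With positions split by covering reads into 4 bins of equal size, from the shallowest to the deepest, calls were made at 11.1, 15.2, 7.70 and 14.2 percent of U and at 12.0, 13.2, 9.12 and 8.50 percent of A, C and G. Deep positions are mostly rRNA, so depth and RNA class cannot be told apart here.

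The last question was whether the response to CMC and Terminator differed between knockdown and wild-type cells. At positions listed in all 4 tables edgeR called no difference in response: 0 of 15181 (0.0 percent), 5818 of them U, at a lowest adjusted p of 0.104, and DESeq2 called 0. At an unadjusted p under 0.05 the knockdown response was smaller at 122 U and larger at 4. Of these 122, 76 lay in 18S and 28S rRNA, which supplied 561 of the tested U. Thus 13.5 percent of the 18S and 28S U had a smaller response in the knockdown at that level and 0 a larger one, against 77 of 1807 other bases of the same rRNAs (4.26 percent), and in mRNA 20 of 2140 U (0.93 percent). This count was chosen after the data were seen. It was 66 U and 94 other bases without CMC+Terminator replicate 1 of the knockdown, and 21 to 39 U and 3 to 43 other bases without any one of the other 7 libraries, the lowest without CMC- replicate 2 of the wild type. The fits without 1 library also had no block per table, so both the libraries and the model differed from the full fit. All 12 U of lowest p were in 18S or 28S rRNA. The median difference in log2 response was -0.089 at the 18S and 28S U, -0.069 at their other bases and -0.081 at the mRNA U. U tested in the knockdown had a median of 13764 covering CMC- reads in 28S rRNA and 294 in mRNA. Depth and RNA class therefore cannot be told apart in these counts.

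**Figure D4:**
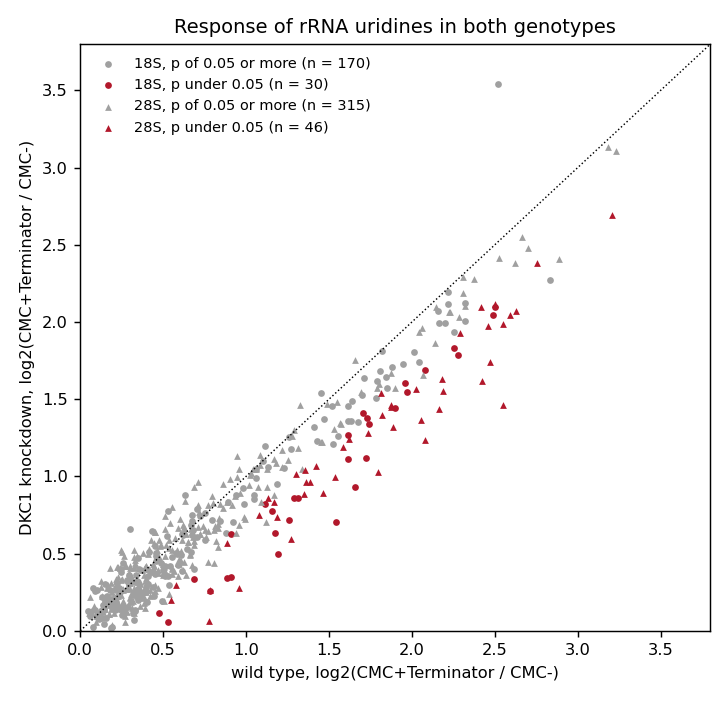
Log2 ratio of the mean CMC+Terminator to the mean CMC- stop percent in the knockdown (vertical axis) and in wild-type HCT116 cells (horizontal axis) for the 561 tested uridines of 18S (circles) and 28S rRNA (triangles), red where the difference had an unadjusted p under 0.05, with the line of equality dotted. The 76 red points, 30 in 18S and 46 in 28S rRNA, all lie below the line.

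The 3 uridines of lowest p, named after their values were seen, had lower stop percents in the knockdown with CMC+Terminator and higher or like ones with CMC- (scatter of rRNA responses). 28S base 4281 stood at 4.45 and 4.29 percent in knockdown cells with CMC+Terminator and at 1.72 and 1.45 percent with CMC-. In wild-type cells it stood at 7.22 and 7.08 percent with CMC+Terminator and 1.33 and 1.11 percent with CMC- (difference in log2 response -1.08 ± 0.15, adjusted p 0.104). 18S base 1445 stood at 5.87 and 4.85 percent in knockdown cells with CMC+Terminator and at 3.56 and 3.03 percent with CMC-. In wild-type cells the values were 9.43 and 9.66 percent with CMC+Terminator and 3.44 and 3.11 percent with CMC- (difference -0.85 ± 0.12, adjusted p 0.104). For 28S base 4346 the knockdown had 6.81 and 5.97 percent with CMC+Terminator and 2.90 and 2.54 percent with CMC-, and wild type 10.6 and 9.88 percent with CMC+Terminator and 2.46 and 2.39 percent with CMC- (difference -0.84 ± 0.12, adjusted p 0.104). At each, both knockdown CMC+Terminator libraries lay below both wild-type ones, an order that the choice by lowest p favours.
28S rRNA base 4281 (RNA28SN2, chr21:8218168, plus strand): cgcttgatctTgattttcagt
18S rRNA base 1445 (RNA18SN1, chr21:8438320, plus strand): cccaacttctTagagggacaa
28S rRNA base 4346 (RNA28SN2, chr21:8218233, plus strand): ttttgggtttTaagcaggagg

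Among the 51 positions named by rule the difference in log2 response ran from -0.87 at tRNA-Leu-TAG-3-1 to 1.36 at RPS3A, and none passed the threshold. 28S base 4517 averaged 14.1 ± 0.926 percent with CMC+Terminator in knockdown cells and 13.8 percent in wild-type cells (difference -0.06), and base 3803 averaged 17.7 ± 1.5 and 17.2 percent (difference -0.13). The CMC- averages, knockdown first, were 1.61 and 1.53 percent at base 4517 and 2.05 and 1.84 percent at base 3803. 28S base 3743 averaged 10.1 ± 0.20 percent in knockdown and 12.8 percent in wild-type cells (difference -0.51). 18S base 1248 averaged 15.9 ± 0.928 and 17.1 percent (difference -0.16). Of the 164 U of 18S and 28S rRNA whose stop percent was at least 2-fold higher with CMC+Terminator in wild type, 154 had a smaller response in the knockdown and 10 a larger one, a choice by the wild-type value that favours that direction. With no such choice the response was smaller in the knockdown at 407 of 561 U (72.5 percent) and 1280 of 1807 other bases (70.8 percent) of 18S and 28S rRNA, and at 60.9 percent of all 15181 positions. U1 base 5 averaged 11.5 ± 0.119 percent in knockdown and 12.7 percent in wild-type cells (difference 0.24), beside CMC- averages of 1.70 and 2.26 percent. RNU4-1 base 72 averaged 27.6 ± 6.14 and 34.5 percent (difference -0.76). RPS3A averaged 14.8 percent in knockdown and 9.02 percent in wild-type cells (difference 1.36, unadjusted p 0.0336 by edgeR), and MT-TE base 25 averaged 18.1 and 15.9 percent (difference -0.77), beside CMC- averages of 2.58 and 1.33 percent.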

How the data were processed

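The libraries record where reverse transcription stopped on polyadenylated RNA. The submitters' processing notes name cutadapt 2.8, STAR (its version is not given in the sources used here) and the hg38 build. The authors deposited, per position, counts of stop reads and of reads covering it, all whole numbers. The authors also deposited stop reads as RPM, used here to recover library totals and in the alternatives with library totals. How reads matching several positions were counted is not given in the sources used here, so positions in repeated genes are uncertain. Positions sharing a 31-base sequence were counted once, at the copy with most covering reads. Stop counts were fitted with edgeR 4.0.16 in R 4.3.3 (glmQLFit, glmQLFTest), with the logarithm of covering reads as offset and the replicate number as block, and p-values were adjusted (Benjamini-Hochberg) across every tested base. The SE is the log2 change divided by the square root of F. Each replicate is a pair per the series design text. Deviations of log2 stop RPM from the group mean correlated at 0.41 between same-numbered libraries, over 19851 positions. The difference between genotypes was the interaction in a fit of 8 libraries with each table as block. Alternatives included DESeq2 1.42.0, other scalings, filters and left-out libraries. Of positions in Ensembl transcripts 91.9 percent were placed in GENCODE 29, with matching bases at 100.0 percent, and rRNA bases in RefSeq genes. Members, lists and the naming rule (the largest changes per RNA class among called U with at least 10 CMC- stop reads) were chosen with earlier results of these data known. The edgeR script was tested on simulated data. A marker gene and a sequence with its result are not reported here.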

Additional observations from a re-analysis of the deposited data

How the results depend on the processing

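The numbers of called positions depended on the setting, and no named position changed sign. With no minimum fold 1381 U and 2436 other bases were called higher. DESeq2 with covering reads gave 311 and 520, leaving 2393 U and 4150 other bases without an adjusted p, and DESeq2 with its own size factors 422 U (U share 21.2 percent). Library totals as scale gave 2763 other bases beside 848 U higher and 27 U lower (U share 23.5 percent), and TMM 2362 beside 719 U higher and 85 U lower (U share 23.3 percent). These scalings put the median log2 change of all positions at 0.03 and -0.10, where covering reads put it at 0.46. Without the filter 1368 U and 2101 other bases were called, and with every copy kept 1705 and 2636. Requiring 10 or more stop reads over the CMC- libraries as well gave 767 U and 1198 other bases. Without the replicate block 708 U and 1101 other bases were called, a U share of 39.1 percent. Leaving out 1 library, without the block because no residual degrees of freedom would remain, gave 409 to 848 U, 563 to 1494 other bases and U shares of 35.9 to 42.1 percent, the lone sample being assumed to vary like the other group. Of 51 named positions 24 passed under every alternative that gave a value.

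The difference between genotypes was called at 0 U under every alternative except keeping every copy (3 U). The counts of 18S and 28S positions with a smaller knockdown response at an unadjusted p under 0.05, alternatives chosen after the data were seen, were for U and other bases 27 and 15 with library totals, 18 and 10 with TMM, 37 and 13 with DESeq2, 41 and 15 without the replicate block and 233 and 216 with every copy. Leaving out 1 library gave 21 to 66 U and 3 to 94 other bases.

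Depth limits mRNA more than rRNA: tested U had a median of 294 covering CMC- reads in mRNA and 13764 in 28S rRNA. Positions not listed were not analysed here.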

Other observations

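Among called U of long noncoding RNAs the largest change was in MALAT1, a nuclear RNA, at chromosome 11 position 65503689. The stop percent there averaged 17.3 ± 4.43 with CMC+Terminator and 3.91 ± 0.0378 with CMC- (SD, n = 2 each). Over long noncoding RNAs 16 of 196 U (8.16 percent) and 30 of 185 other bases (16.2 percent) were called. RMRP, the RNA of the endonuclease RNase MRP, had called U with stop percents of 7.10 to 10.2 with CMC+Terminator and 2.90 to 3.86 with CMC-. Over the class of 7SL and RNase RNAs 4 of 42 U (9.52 percent) and 10 of 108 other bases (9.26 percent) were called. The mitochondrial rRNAs had 16 of 316 U (5.06 percent) and 18 of 696 other bases (2.59 percent) called, led by MT-RNR2 position 3067 at 4.74 ± 0.40 percent with CMC+Terminator and 1.42 ± 0.165 percent with CMC-. Among mRNAs the most called U were in EEF2, at 23 of 103 tested, and ACTG1, at 17 of 89, while EEF1A1 had 11 of 203.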
